A study of Mus musculus with 10 samples.

Results

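The mitogen-activated protein (MAP) kinase family was examined in hippocampal microglia through 9 genes, selected by symbol from the 55453 genes of the deposited count table. They comprised 6 MAP kinases (*Mapk8*, *Mapk9*, *Mapk10*, *Mapk3*, *Mapk14* and *Mapk7*), the MAP kinase kinases *Map2k4* and *Map2k7*, and the upstream kinase *Map3k1*. The set was built around *Mapk8*, which was picked because it ranked among the genes lower in mice given glatiramer acetate (GA), a mixture of synthetic polypeptides used against multiple sclerosis. The difference between treatments in *Mapk8* is therefore given below as a description, without a test. Of the 9 members, 8 passed the filter on low counts and *Mapk10* did not.

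All libraries came from female 3xTg mice over 15 months old, a homozygous line that carries human *APP* with the Swedish mutation together with further mutant transgenes, human *MAPT* among them. By the study's methods these transgenes are driven by the Thy1.2 promoter, and the animals were retired breeders. The GA group (5 libraries) was injected under the skin with 0.1 mg of GA weekly for about 8 weeks, and the control group (5 libraries) with phosphate-buffered saline (PBS), so that both groups share genotype, sex and age. RNA of sorted CD45int CD11b+ cells was amplified and sequenced, and no sample label ties a library to a single mouse, so the spread between libraries may be partly technical.

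Total counts ran from 32332185 to 38764643 per library. The microglial markers *P2ry12*, *Tmem119*, *Cx3cr1*, *Csf1r*, *Aif1*, *Itgam* and *Ptprc* were all detected and summed to 36100 to 41600 CPM (counts scaled to library size) with PBS and 35400 to 38000 CPM with GA. All PBS libraries carry the title prefix 388, GA libraries 1 and 2 carry 394, and GA libraries 3 to 5 carry 400. What these prefixes stand for is not given, and they cannot be told apart from treatment. In bulk RNA, fewer cells of a type and less RNA per cell cannot be told apart either.

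MAP kinases act as the last step of a relay in which a MAP3K phosphorylates a MAP2K, and the MAP2K phosphorylates the MAP kinase on a threonine and a tyrosine that are separated by a single residue. *Mapk8*, *Mapk9* and *Mapk10* encode the c-Jun N-terminal kinases JNK1, JNK2 and JNK3, *Mapk3* encodes ERK1, *Mapk14* encodes p38α and *Mapk7* encodes ERK5. In microglia, JNK and p38 are known to carry signals from Toll-like and cytokine receptors to inflammatory genes, while ERK1 lies downstream of growth factor receptors.

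The coding sequence around the paired phosphorylation codons is shown because it separates the branches of the family and tells whether reads of the kinases could be confused. Each window holds 69 bases of the longest complete coding transcript in GENCODE M21 (GRCm38), read 5′ to 3′ on the sense strand, and lies within a single exon. Capitals mark the codons of the threonine, the residue between, and the tyrosine, found by an in-frame search of the sense strand for ACN, any codon and TAC or TAT, downstream of the codons of an aspartate-phenylalanine-glycine triplet.
Mapk8: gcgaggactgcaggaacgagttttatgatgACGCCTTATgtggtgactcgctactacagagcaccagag
Mapk9: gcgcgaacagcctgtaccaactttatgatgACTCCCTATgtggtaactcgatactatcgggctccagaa
Mapk10: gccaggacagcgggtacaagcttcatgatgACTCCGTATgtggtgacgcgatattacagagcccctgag
Mapk3: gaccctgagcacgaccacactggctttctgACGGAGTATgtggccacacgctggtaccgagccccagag
Mapk14: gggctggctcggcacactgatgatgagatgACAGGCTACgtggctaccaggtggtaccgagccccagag
Mapk7: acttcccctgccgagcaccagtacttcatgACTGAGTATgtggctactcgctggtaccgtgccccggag

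The windows lie at chr14:33392973-33393041 in exon 6 of *Mapk8* (minus strand), chr11:49872800-49872868 in exon 6 of *Mapk9* (plus strand), chr5:102989651-102989719 in exon 7 of *Mapk10* (minus strand), chr7:126763428-126763496 in exon 4 of *Mapk3* (plus strand), chr17:28728369-28728437 in exon 7 of *Mapk14* (plus strand) and chr11:61491392-61491460 in exon 4 of *Mapk7* (minus strand). The capitals begin at codon 183 in *Mapk8* and *Mapk9*, codon 251 in *Mapk10*, codon 203 in *Mapk3*, codon 180 in *Mapk14* and codon 219 in *Mapk7*. The middle codon was of the form CCN in the 3 JNK genes, GAG in *Mapk3* and *Mapk7*, and GGC in *Mapk14*. The window of *Mapk8* matched that of *Mapk10* at 55 bases (79.7%) and that of *Mapk9* at 51 bases (73.9%), against 38 bases (55.1%) for *Mapk14* and *Mapk7* and 36 bases (52.2%) for *Mapk3*. Over whole transcripts, the longest run shared by *Mapk8* and *Mapk10* was 27 bases, and by *Mapk8* and *Mapk9* 23 bases. No stretch of 100 bases, the read length, was shared by any pair of the 6 kinases, so an error-free read from an annotated transcript of one could not match another along its full length.

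Within the cells, p38α and ERK1 transcripts were the most abundant of the family and JNK3 transcripts were near absent. Levels between genes are compared as CPM per kilobase of merged exons. *Mapk14* had 73.3 ± 3.99 CPM per kilobase (SD, n = 10 libraries of both treatments) and *Mapk3* 58.0 ± 4.70 CPM per kilobase (SD, n = 10). *Mapk14* was above *Mapk3* in all 10 libraries, although the ranges over libraries overlapped. The next level was shared by *Mapk7*, at 15.8 ± 1.27 CPM per kilobase (SD, n = 10), and *Map2k4*, an activator of JNK and p38, at 15.6 ± 1.93 CPM per kilobase (SD, n = 10). Those neighbours did not differ beyond their spread, with *Mapk7* the higher in 6 of the 10 libraries.

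*Mapk9* followed with 10.5 ± 0.681 CPM per kilobase (SD, n = 10), *Map3k1* with 7.31 ± 0.289 CPM per kilobase (SD, n = 10) and *Map2k7*, the activator specific to JNK, with 4.48 ± 0.637 CPM per kilobase (SD, n = 10). *Mapk8* was lower still, with 0.856 ± 0.245 CPM per kilobase (SD, n = 10), and ranked 8 of 9 in every library by this length. From *Mapk9* to *Mapk10* no neighbours in this order overlapped over the libraries by merged exons. JNK2 transcripts outnumbered JNK1 transcripts in every library, by 6.88 to 20.9 times per kilobase of merged exons and by 5.01 to 15.2 times per kilobase of the longest transcript. The merged exons of *Mapk8* span 11444 bases, against 5756 bases in its longest transcript, and some of its annotated transcripts retain introns. With the longest transcript as the length, *Mapk8* had 1.70 ± 0.488 CPM per kilobase (SD, n = 10) and kept its rank of 8, while *Map2k4* moved ahead of *Mapk7* and *Mapk7* and *Mapk9* overlapped. By coding length the order also changed: *Mapk9* lay above *Mapk7* in all 10 libraries, *Map2k7* above *Map3k1* in 7 of 10 with overlapping ranges, and the highest *Mapk8* library, at 12.3 CPM per kilobase, lay above the lowest *Map3k1* library, at 11.1 CPM per kilobase.

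**Figure D1:**
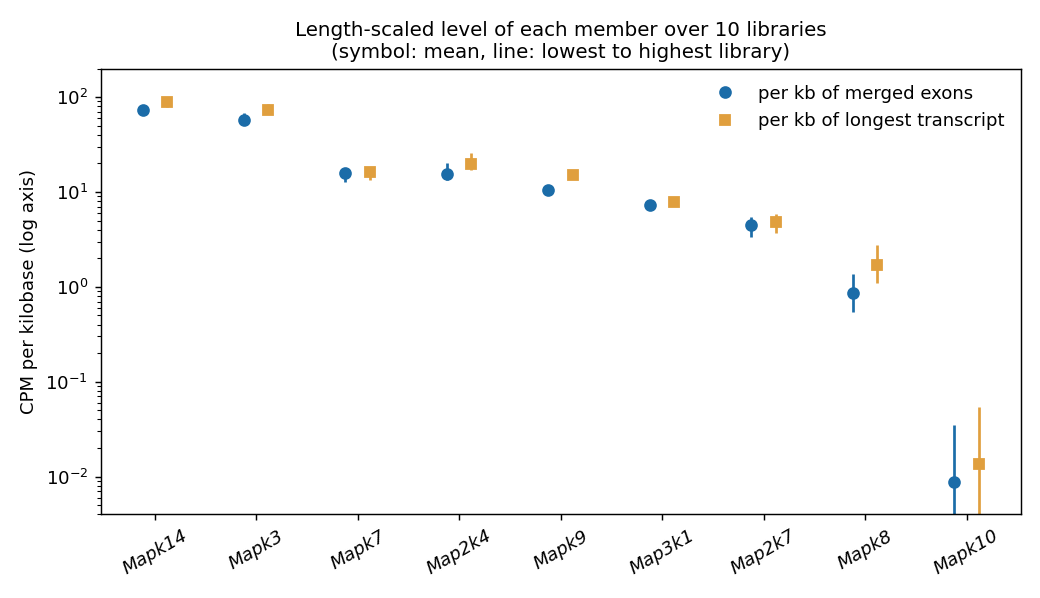
CPM per kilobase (log axis) of the 9 members over the 10 libraries, with the mean as a symbol and a line from the lowest to the highest library, for lengths of merged exons (circles) and of the longest transcript (squares). *Mapk8* lies at 0.856 and 1.70 CPM per kilobase by these lengths, below every member but *Mapk10*, whose lines run to 0 and are cut by the axis.

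Between treatments, 0 of the 14481 genes tested (0.00%) had an adjusted *P* under 0.05 by the edgeR test. *Mapk8* had the lower level in GA for which it had been picked, described here by its values. *Mapk8* (ENSMUSG00000021936.14, chr14:33377898-33447158 of GRCm38, minus strand, protein coding) was measured at 12.6, 9.71, 10.4, 15.7 and 11.1 CPM in PBS libraries 1 to 5. In GA libraries 1 to 5 it was measured at 8.93, 7.69, 8.09, 7.496 and 6.25 CPM. The groups did not overlap, with the highest GA value, in library 1, under the lowest PBS value, in library 2.

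*Mapk8* averaged 11.9 ± 2.39 CPM in PBS against 7.69 ± 0.975 CPM in GA libraries (SD, n = 5 each), the latter 64.6% of the former. The log2 fold change was -0.63 (standard error 0.15), an error that takes no account of the choice of *Mapk8* from this same contrast. The PBS libraries held 325 to 507 *Mapk8* reads each, and the GA libraries 243 to 298. The spread between libraries, a coefficient of variation of 20.1% with PBS and 12.7% with GA, was larger than counting alone would give (4.95% and 6.02%). PBS library 4 was the highest of the 10, and without it the PBS mean was 10.95 CPM, the PBS values ended at 12.6 CPM and the log2 fold change was -0.51.

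Complete separation of the groups with GA below was seen for 0.456% of all genes tested and, of the 8 members tested, for *Mapk8* alone, the gene picked from this contrast. Markers of other leukocytes also differed between the libraries. The neutrophil markers *S100a8*, *S100a9*, *Ngp*, *Ltf* and *Camp* summed to 148, 32.6, 403, 266 and 323 CPM in PBS libraries 1 to 5 and to 38.4, 148, 7.80, 15.8 and 95.2 CPM in GA libraries 1 to 5. The monocyte markers *Ccr2*, *Ly6c2*, *Plac8* and *Chil3* summed to 27.8 to 83.6 CPM with PBS, highest in library 4, and to 30.9 to 42.9 CPM with GA. The groups overlapped for each of these 9 genes. The border macrophage markers *Mrc1*, *Cd163*, *Lyve1*, *Pf4* and *Cbr2* summed to 29.5 to 165 CPM with PBS, also highest in library 4, and to 34.2 to 121 CPM with GA. Their groups overlapped for each gene too. The part of all these markers in the *Mapk8* difference was not tested.

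**Figure D2:**
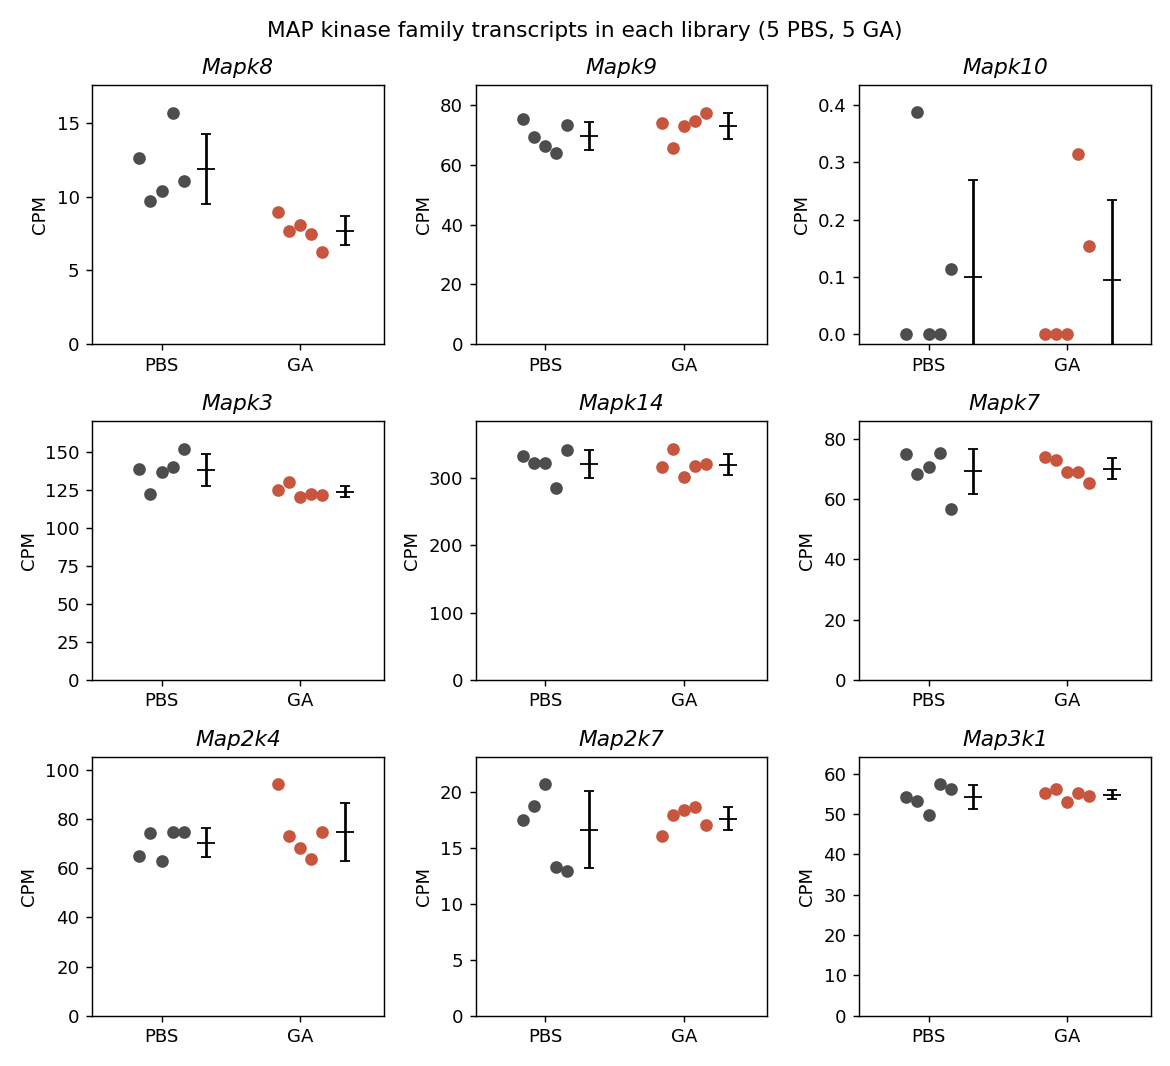
CPM of each member (vertical axis, a scale of its own in each panel) in the 5 PBS libraries (grey) and the 5 GA libraries (red), in the order of library number, with the group mean and SD beside them (SD bars of *Mapk10* cut near 0). Only in the *Mapk8* panel do the groups separate, with PBS at 9.71 to 15.7 CPM and GA at 6.25 to 8.93 CPM.

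Within the GA group the prefixes could be compared by a contrast that had no part in the choice of *Mapk8*. *Mapk8* averaged 8.31 CPM under prefix 394 (2 libraries) and 7.28 CPM under prefix 400 (3 libraries). On the log2 scale, 400 differed from 394 by -0.19 (standard error 0.19, 95% interval -0.62 to 0.24, edgeR quasi-likelihood F-test, adjusted *P* = 0.785). After adjustment 0 of the 8 members passed 0.05 in this contrast, against 0.0138% of all genes (2 genes), and before adjustment 1 did, against 10.3% of all genes. That member was *Map2k4*, with 83.7 CPM in prefix 394 and 68.9 CPM in prefix 400, a log2 difference of -0.28 (standard error 0.12, adjusted *P* = 0.461 from edgeR). The mean of prefix 394 rested on GA library 1, at 94.2 CPM, and without it the 1 remaining library had 73.1 CPM, within the range of prefix 400 (63.7 to 74.6 CPM). The count of 2 genes called between the prefixes depended on the method, with 214 by DESeq2 and 528 by edgeR without a low-count filter.

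JNK2 did not share the pattern of JNK1. *Mapk9* (ENSMUSG00000020366.18, chr11:49846751-49886421, plus strand) had 75.3, 69.3, 66.4, 64.1 and 73.3 CPM in PBS libraries 1 to 5 and 74.2, 65.7, 73.1, 74.5 and 77.5 CPM in GA libraries 1 to 5. The groups overlapped, and PBS library 4, the highest for *Mapk8*, was the lowest for *Mapk9*. Its log2 fold change was 0.07 (standard error 0.07, 95% interval -0.08 to 0.22, edgeR quasi-likelihood F-test, adjusted *P* = 0.945). As a share of the 3 JNK genes per kilobase of merged exons, *Mapk8* held 7.64% to 12.7% in the PBS libraries and 4.56% to 6.66% in the GA libraries. By coding length these shares were 12.1% to 19.6% and 7.39% to 10.7%, so their size depends on the length used, and their difference follows from the *Mapk8* values above and is not a separate result.

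JNK3 was barely detected. *Mapk10* (ENSMUSG00000046709.16, chr5:102907948-103211334, minus strand), whose product is the JNK of neurons, was counted 0, 13, 0, 0 and 4 times in PBS libraries 1 to 5 and 0, 0, 0, 12 and 6 times in GA libraries 1 to 5. A count of 0 allows for up to 3 reads, which is 0.0785 to 0.0930 CPM in the PBS libraries and 0.0772 to 0.0899 CPM in the GA libraries. The pooled level was 0.0989 CPM with PBS (17 reads, exact Poisson 95% interval 0.0576 to 0.158) and 0.0997 CPM with GA (18 reads, interval 0.0591 to 0.158), intervals that cover counting error only. The 8 neuronal markers (*Rbfox3*, *Snap25*, *Syt1*, *Nrgn*, *Slc17a7*, *Gad1*, *Tubb3* and *Stmn2*) were also near 0, with sums of 0.935 to 2.35 CPM in PBS libraries and 0.360 to 1.47 CPM in GA libraries.

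The MAP kinases outside the JNK branch rested on 1999 to 12715 reads per library. *Mapk3* (ENSMUSG00000063065.13, chr7:126759601-126765819, plus strand) had 138.8, 122.1, 136.5, 140.2 and 152.1 CPM with PBS and 124.9, 129.8, 120.5, 122.5 and 121.5 CPM with GA. In 2 of the 5 GA libraries *Mapk3* lay below every PBS library, and PBS library 2 lay among the GA values. The log2 fold change of *Mapk3* was -0.16 (standard error 0.07, 95% interval -0.30 to -0.02, adjusted *P* = 0.854 from edgeR, unadjusted 0.0324).

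*Mapk14* (ENSMUSG00000053436.15, chr17:28691329-28748406, plus strand) ran from 285.6 to 341.9 CPM with a median of 323.0 in PBS libraries and from 301.9 to 343.9 CPM with a median of 318.3 in GA libraries. *Mapk14* differed by -0.00 on the log2 scale (standard error 0.06, 95% interval -0.14 to 0.13, adjusted *P* = 0.997 from edgeR). *Mapk7* (ENSMUSG00000001034.17, chr11:61488812-61494406, minus strand) had 74.9, 68.3, 70.6, 75.3 and 56.7 CPM with PBS and 74.0, 72.8, 69.1, 69.0 and 65.3 CPM with GA. PBS library 5 was the lowest of the 10 for *Mapk7*, and the log2 fold change was 0.02 (standard error 0.08, 95% interval -0.16 to 0.19, adjusted *P* = 0.984 from edgeR). *Mapk7* shares 89 exon bases (2.03% of its length) with *Mfap4* on the opposite strand, which had 0 counts in every library.

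The kinases that activate JNK were measured with the JNK genes. *Map2k4* (ENSMUSG00000033352.11, chr11:65688243-65788297, minus strand) had 65.0, 74.3, 63.0, 74.7 and 75.0 CPM with PBS and 94.2, 73.1, 68.4, 63.7 and 74.6 CPM with GA. GA library 1 stood above the other 9 libraries, which overlapped, and the log2 fold change of 0.09 (standard error 0.10, 95% interval -0.13 to 0.30, adjusted *P* = 0.946 from edgeR) was -0.01 without that library. *Map2k7* (ENSMUSG00000002948.19, chr8:4238740-4247897, plus strand) had 17.5, 18.8, 20.7, 13.4 and 12.9 CPM with PBS and 16.1, 18.0, 18.4, 18.7 and 17.1 CPM with GA. PBS libraries 4 and 5 were below the rest, and *Map2k7* had a log2 fold change of 0.08 (standard error 0.13, 95% interval -0.20 to 0.37, adjusted *P* = 0.960 from edgeR), which ranged from 0.01 without PBS library 5 to 0.17 without PBS library 3.

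Of the merged exons of *Map2k7*, 1349 bases (35.2%) are also exons of *Gm49320* on the same strand, a gene with 0 counts in every library. Whether reads in these shared exons were counted for *Map2k7* is not known, so its level per kilobase may be understated. *Map3k1* (ENSMUSG00000021754.17, chr13:111746428-111808993, minus strand), a MAP3K upstream of JNK, had 54.1, 53.3, 49.6, 57.3 and 56.1 CPM with PBS and 55.1, 56.2, 53.1, 55.1 and 54.3 CPM with GA. It was the steadiest member, with a coefficient of variation of 5.47% in PBS and 2.14% in GA libraries, where counting alone would give 2.32% and 2.25%. Its log2 fold change was 0.02 (standard error 0.07, 95% interval -0.12 to 0.16, adjusted *P* = 0.979 from edgeR).

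Of the 7 tested members other than *Mapk8*, 0 passed an adjusted *P* of 0.05 by the edgeR test, as did 0 of all 14481 genes tested (0.00%). Before adjustment 1 of the 7, *Mapk3*, was under 0.05, against 5.75% of all genes (833). DESeq2 called 2 genes (0.0106% of those it adjusted) and limma-voom called 0 (0.00%). The median log2 fold change of the 7 was 0.02, and 2 of the 7 were below 0, against 49.9% of all genes. The 95% intervals, set by 5 libraries a group and their spread, reached 0.37 on the log2 scale for *Map2k7* and stayed within 0.16 in either direction for *Mapk14* and *Map3k1*.

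**Figure D3:**
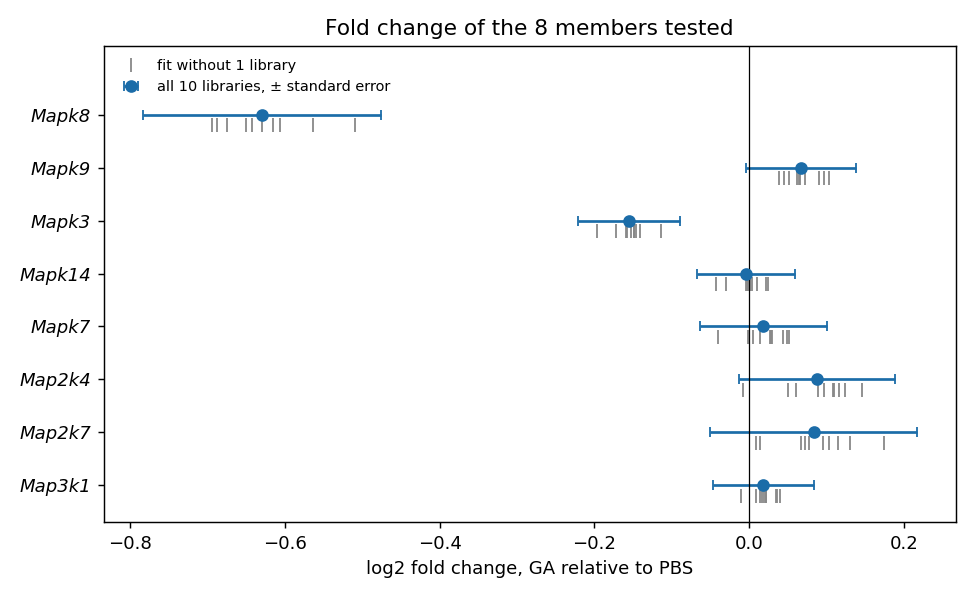
Log2 fold change of GA relative to PBS (horizontal axis) for the 8 members tested, as the value and standard error over all 10 libraries (blue) and as the value of each fit without 1 library (grey ticks). *Mapk8* lies between -0.69 and -0.51 in the fits without 1 library, and *Mapk14*, *Mapk7*, *Map2k4* and *Map3k1* have ticks on both sides of 0. The standard error of *Mapk8* takes no account of its choice from this contrast.

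Correlations between members over the libraries had both signs. Once each group's mean was subtracted, Pearson's r of log2 CPM over the 10 libraries ran from -0.84 to 0.56 over the 28 pairs of tested members, with a median of -0.05 and 11 positive pairs. These correlations are descriptions over libraries that share preparation and depth, and no p-value is attached. By this measure *Mapk8* was most like *Mapk7*, with r = 0.56 and Spearman's rho = 0.73, and r = 0.68 without PBS libraries 4 and 5, the farthest from the median of *Mapk7*. With the group means kept, r of *Mapk8* with *Mapk7* was 0.224. It was then highest with *Mapk3* (r = 0.725, rho = 0.77), a value that includes the difference between groups. *Map3k1* and *Map2k7* ran in opposite directions with group means removed, with r = -0.84 and rho = -0.79, and r = -0.65 without PBS libraries 3 and 4, the farthest from the median of *Map3k1*.

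**Figure D4:**
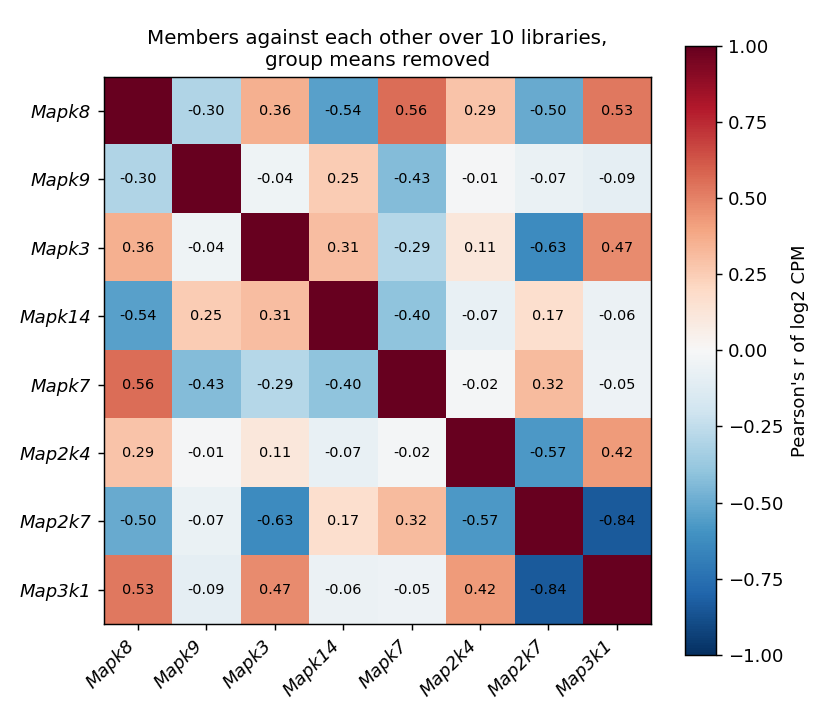
Pearson's r of log2 CPM between each pair of the 8 tested members over 10 libraries after the mean of each treatment was removed (red positive, blue negative). The range is -0.84, for *Map3k1* with *Map2k7*, to 0.56, for *Mapk8* with *Mapk7*.

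Among 9818 other genes with a mean of at least 5 CPM, those with the pattern most like that of *Mapk8* over the 10 libraries were *Tbc1d16* (r = 0.96, rho = 0.94), *Cask* (r = 0.94, rho = 0.94), *Wdr91* (r = 0.93, rho = 0.88), *Khk* (r = 0.91, rho = 0.86) and *9930017N22Rik* (r = 0.91, rho = 0.82). *Tbc1d16* encodes a Rab GTPase-activating protein, *Cask* a membrane-associated scaffold kinase, *Wdr91* a protein of endosome maturation and *Khk* ketohexokinase. Since *Mapk8* was chosen for its lower level in GA, genes that follow it over both groups share that difference in part: *Tbc1d16* had 26.0 to 42.6 CPM with PBS and 21.6 to 28.1 CPM with GA. With the group means removed, the 5 most alike genes were *Zfp945* (r = 0.95), *Camk1d* (r = 0.94), *Tbc1d16* (r = 0.94), *Mrpl58* (r = 0.94) and *Cc2d1b* (r = 0.92). *Tbc1d16* was the gene in both sets, with r = 0.92 within groups after GA library 5 and PBS library 4, the farthest from the median of *Mapk8*, were left out. All these genes were picked as the highest r of 9818 over 10 libraries, so high values follow in part from the choice. The value without 2 of the same libraries is no separate support. When a library was left out, between 2 and 5 of the first 5 genes and between 1 and 4 of the second 5 stayed.

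The rest of the pathway showed no called gene. Of 85 further genes in 8 lists, 75 passed the filter on low counts, and the edgeR test called 0 of these lower and 0 higher at an adjusted *P* of 0.05 (0.00% of all genes called). An unadjusted p-value under 0.05 was found for 2 lower and 3 higher genes of the 75, against 3.17% and 2.58% of all genes. Their median log2 fold change was -0.03 (0.00 over all genes tested), and 45 of the 75 were below 0, against 49.9% of all genes.

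In the pathway lists the most abundant gene is the one with the highest mean CPM, which is not scaled to length. Of 7 other MAP kinases, 4 were tested with a median log2 fold change of 0.15. The most abundant was *Mapk6*, which encodes the atypical kinase ERK3, with a median of 31.7 CPM in PBS and 29.9 CPM in GA libraries and a difference of 0.01 on the log2 scale (standard error 0.12). All 5 of the other MAP2K genes were tested, with a median log2 fold change of -0.05, and *Map2k1*, an activator of ERK1, was the most abundant at 266 ± 22.0 CPM in PBS against 258 ± 10.7 CPM in GA libraries (SD, n = 5 each). Of the other MAP3K genes, 21 of 23 were tested with a median of -0.06, and *Map3k3* was the most abundant, at 257 ± 7.60 CPM in PBS against 247 ± 20.1 CPM in GA libraries (SD, n = 5 each). These lists held no gene with an unadjusted p-value under 0.05.

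Of the MAP4K genes, which act upstream of the MAP3K step, 6 of 7 were tested. *Map4k4* had 60.5 to 76.4 CPM with PBS and 54.5 to 67.4 CPM with GA, overlapping groups, and a log2 fold change of -0.20 (standard error 0.08, adjusted *P* = 0.854 from edgeR). The most abundant gene of that list, *Map4k3*, had a log2 fold change of 0.09 (standard error 0.09). Of the scaffolds and adaptors, 9 of 11 were tested with a median of 0.14, and *Mapk8ip3*, a JNK-binding scaffold, was the most abundant with 105 to 144 CPM with PBS and 121 to 157 CPM with GA.

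Of the 10 phosphatases that switch MAP kinases off, 8 were tested with a median log2 fold change of -0.15. *Dusp6*, a phosphatase of ERK, averaged 992 ± 54.1 CPM in PBS against 894 ± 177 CPM in GA libraries (SD, n = 5 each), a difference smaller than the spread in the GA group.

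Downstream of the MAP kinases, all 10 substrate kinases and all 12 substrate factors were tested, with medians of 0.02 and -0.05. *Mapkapk2*, the kinase activated by p38, had 118 to 177 CPM with PBS and 159 to 182 CPM with GA and a log2 fold change of 0.23 (standard error 0.10, adjusted *P* = 0.854 from edgeR). The most abundant substrate kinase was *Rps6ka1*, at 974 ± 74.3 CPM in PBS against 920 ± 30.2 CPM in GA libraries (SD, n = 5 each). *Atf2*, a transcription factor phosphorylated by JNK and p38, had 55.2 to 68.1 CPM with PBS and 67.1 to 80.6 CPM with GA and a log2 fold change of 0.23 (standard error 0.08, adjusted *P* = 0.847 from edgeR). *Elk1*, an ERK target, averaged 4.78 ± 0.561 CPM in PBS against 6.25 ± 0.824 CPM in GA libraries (SD, n = 5 each, log2 fold change 0.38, standard error 0.16, edgeR adjusted *P* = 0.854), and *Elk3*, of the same family, ranged from 108 to 143 CPM in PBS and from 78.1 to 107 CPM in GA libraries.

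*Elk3* was the gene of the 75 whose GA libraries all lay below the PBS libraries, against 0.456% of all genes. *Elk3* differed by -0.28 on the log2 scale (standard error 0.10, edgeR adjusted *P* = 0.847). No gene of the 75 had every GA library above, against 0.435%. *Mef2c*, a factor of microglial identity and a target of p38 and ERK5, was the most abundant of its list at 610 ± 20.8 CPM in PBS against 578 ± 26.1 CPM in GA libraries (SD, n = 5 each).

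**Figure D5:**
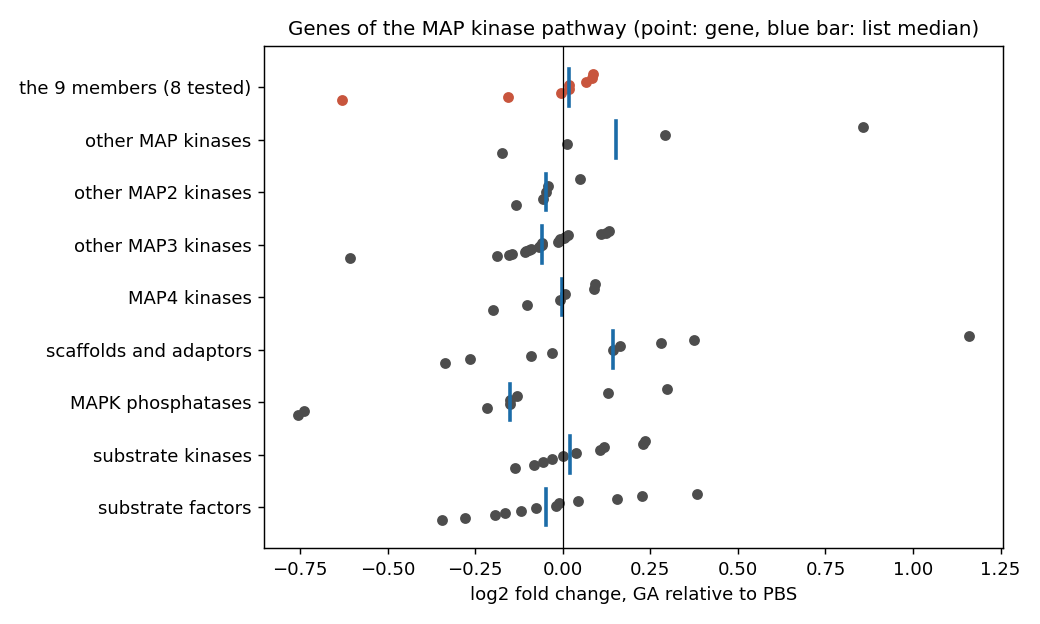
Log2 fold change of GA relative to PBS (horizontal axis) for each tested gene of the members (red) and of the 8 pathway lists (grey), with the median of each list as a blue bar. List medians lie between -0.15 and 0.15, and *Mapk8*, at -0.63, is the lowest of the members.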

How the data were processed

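The authors deposited raw counts of reads per gene symbol for 10 libraries of single-end reads. The submitters' processing notes name bcl2fastq 2.19.0, fastp 0.20.0, STAR 2.7.0f, featureCounts of Subread 1.6.4 and GRCm38.p6. Annotation, strand setting and parameters are not given in the sources used here, so reads of overlapping genes could not be separated. Groups were taken from the treatment label.

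Counts were filtered with filterByExpr (minimum count 10, 14481 genes kept), normalized by TMM and tested with the quasi-likelihood F-test of edgeR 4.0.16 in R 4.3.3 without covariates, with Benjamini-Hochberg adjustment over all genes tested. CPM use TMM-scaled library sizes, and log2 CPM a prior count of 2. DESeq2 1.42.0 and limma 3.58.1 (voom) were alternatives. Intervals are 95% intervals of the edgeR fit. Lengths and positions came from GENCODE M21, which held all 9 members. On simulated data with 14481 genes, edgeR found 140 of 200 genes made to differ by 1 on the log2 scale and made 7 false calls.

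The members and lists were chosen with earlier results of these data known. Named were all members, the 5 genes most like *Mapk8* by each measure, and cell type markers. In each pathway list the most abundant gene by mean CPM, not scaled to length, was named. Those with an unadjusted p-value under 0.05 between treatments by the edgeR test were named too. A few listed genes are not reported here, and the lists' counts and sums leave them out.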

Additional observations from a re-analysis of the deposited data

How the results depend on the processing

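In the comparison of GA with PBS, edgeR called 0 genes, DESeq2 called 2, and fits without 1 library called 0 to 1, the latter without GA library 1. Of 144 refitted fold changes of the 8 tested members, 13 took the opposite sign, none of *Mapk8*, *Mapk9*, *Mapk3* or *Map2k7*. All 144 stayed within 1 SD between libraries, a wide margin that a fit without 1 library could hardly pass, so it is no measure of stability. *Map2k4* ran from 0.26 with prefix 394 alone against PBS to -0.03 with prefix 400 alone. *Mapk8* ranged from -0.70 to -0.51, and its kept sign follows from the choice of the gene and from groups that did not overlap. Between the GA prefixes the 2 calls became 214 with DESeq2, 528 without a low-count filter and 2 to 32 without 1 library, the highest without GA library 3 (14 without GA library 2, 5 without GA library 1); where a prefix kept 1 library, that library was assumed to vary like the others. The causes were not tested. Without 1 library, 2 to 5 of the 5 genes most like *Mapk8* were kept, and 1 to 4 with group means removed. By its mean, *Mapk8* was at rank 8 with the longest transcript and with coding length, but with coding length single libraries placed it at rank 7 or 8. No paired analysis was possible because the libraries' numbers repeat within the GA group and are nested in the title prefix. *Mapk10*, at 0 to 13 reads a library, did not pass the filter on low counts, and a difference in it was not detectable at this depth.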

Other observations

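In the pathway lists, 4 genes had a fold change further from 0 than that of *Mapk8*, and they are named after their values were seen. *Sh3rf1*, a scaffold of the JNK relay, was measured at 0 to 0.702 CPM in PBS and 0.105 to 1.08 CPM in GA libraries, which gave 1.16 on the log2 scale (standard error 0.87). *Mapk11*, which encodes p38β, was measured at 0.0896 to 0.713 CPM in PBS and 0.120 to 1.39 CPM in GA libraries, with a log2 value of 0.86 (standard error 0.67). *Dusp5*, a nuclear phosphatase of ERK, was measured at 0.961 to 2.23 CPM in PBS and 0.515 to 1.10 CPM in GA libraries, with a log2 value of -0.76 (standard error 0.37). *Dusp1*, a phosphatase of JNK and p38 that is an immediate early gene, had a median of 24.9 CPM and a highest value of 83.6 CPM in PBS libraries, and a median of 18.9 CPM and a highest value of 38.7 CPM in GA libraries, with a log2 value of -0.74 (standard error 0.45). In each of the 4 the groups overlapped, and the adjusted p-values of the edgeR test ran from 0.872 to 0.915. *Mapk13*, *Mapk4* and *Mapk15* did not pass the filter on low counts and reached 24, 7 and 2 reads in their highest library.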
